A study of Homo sapiens with 9 samples.

Results

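BAIAP2, AATK, RXRA, CARD10, MEGF6, PDE4DIP, LIMD1, SHB and IQCJ-SCHIP1 are among the genes whose bases under H3K4me3 islands differed most between BEAS-2B cells with mdig knocked out (KO) and their wild-type counterpart (WT). They are 9 of 20136 protein-coding genes of GENCODE 44 on GRCh37. The first 5 had fewer bases under H3K4me3 in KO and the other 4 had more. They were chosen by that H3K4me3 difference, which is therefore given as a description only. The question followed here is where along each gene the islands changed, and which of its alternative start sites kept, lost or gained the mark.

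BEAS-2B is an immortalized line of human bronchial epithelial cells, and mdig (mina53, gene symbol RIOX2) is a JmjC domain protein studied as a regulator of histone methylation. KO cells came from colonies without mdig protein after CRISPR-Cas9 editing of its exon 3, and WT cells went through the same editing and retained the protein, both grown under blasticidin. The number of clones behind each library was not given in the sources used here. There was 1 ChIP-seq library per genotype for each of 4 marks (H3K4me3, H3K27me3, H3K9me3 and H3R8me2a) and 1 input of WT, so no difference has a replicate, an error or a test, and clone and genotype cannot be told apart. An island is known by its edges alone, so the read depth behind it is unknown. The cells were measured in bulk, and marking of fewer cells and weaker marking per cell cannot be told apart.

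H3K4me3 is laid down around active transcription start sites, most often where CpG dinucleotides are dense, and a gene with several promoters can carry it at some of them and not at others. Wide H3K4me3 domains that run from a promoter into the gene body are known from genes tied to cell identity. H3K27me3 is the Polycomb mark and H3K9me3 the mark of heterochromatin, both linked to silent genes, while H3R8me2a is an asymmetric dimethylation of arginine.

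The start sites that kept H3K4me3 and those that lost or gained it differed in CG content, so a few are shown first. Start sites of 1 gene within 500 bp of each other were joined, and a site was called marked when an island lay within 1 kb of it. A site was kept when marked in both libraries, lost when marked in WT alone, gained when marked in KO alone, and unmarked otherwise. The reference start is that of the MANE Select transcript. Each line below gives the 300 bases before the 5′-most annotated start of the joined site in GRCh37, read 5′ to 3′ on the strand of the gene, with every CG in capitals.
BAIAP2 (kept, reference start, chr17:79008622-79008921, plus strand): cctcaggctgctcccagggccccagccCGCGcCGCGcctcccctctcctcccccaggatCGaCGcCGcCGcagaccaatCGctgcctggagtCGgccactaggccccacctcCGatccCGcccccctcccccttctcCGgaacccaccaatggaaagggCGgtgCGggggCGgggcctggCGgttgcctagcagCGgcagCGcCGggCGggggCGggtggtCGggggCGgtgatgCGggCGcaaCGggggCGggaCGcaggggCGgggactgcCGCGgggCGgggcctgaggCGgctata
BAIAP2 (lost, intron, chr17:79030836-79031135, plus strand): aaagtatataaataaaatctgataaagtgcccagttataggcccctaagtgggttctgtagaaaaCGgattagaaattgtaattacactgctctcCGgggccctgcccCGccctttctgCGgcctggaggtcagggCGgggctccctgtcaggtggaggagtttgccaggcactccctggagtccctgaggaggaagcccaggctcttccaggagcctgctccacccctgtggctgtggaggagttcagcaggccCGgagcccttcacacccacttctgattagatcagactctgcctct
AATK (lost, intron, chr17:79102726-79103025, minus strand): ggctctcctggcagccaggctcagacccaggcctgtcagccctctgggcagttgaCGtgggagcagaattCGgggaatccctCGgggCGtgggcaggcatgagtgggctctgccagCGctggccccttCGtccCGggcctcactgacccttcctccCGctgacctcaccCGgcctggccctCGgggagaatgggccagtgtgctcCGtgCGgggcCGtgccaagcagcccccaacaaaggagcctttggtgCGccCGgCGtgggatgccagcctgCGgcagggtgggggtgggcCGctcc
RXRA (kept, reference start, chr9:137218001-137218300, plus strand): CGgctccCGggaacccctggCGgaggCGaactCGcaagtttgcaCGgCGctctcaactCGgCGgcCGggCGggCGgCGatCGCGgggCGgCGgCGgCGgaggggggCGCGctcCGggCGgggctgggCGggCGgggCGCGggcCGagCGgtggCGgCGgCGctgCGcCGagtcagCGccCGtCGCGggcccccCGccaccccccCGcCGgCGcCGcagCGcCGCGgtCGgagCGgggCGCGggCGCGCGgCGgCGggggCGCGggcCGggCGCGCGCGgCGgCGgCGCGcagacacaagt
RXRA (lost, intron, chr9:137263517-137263816, plus strand): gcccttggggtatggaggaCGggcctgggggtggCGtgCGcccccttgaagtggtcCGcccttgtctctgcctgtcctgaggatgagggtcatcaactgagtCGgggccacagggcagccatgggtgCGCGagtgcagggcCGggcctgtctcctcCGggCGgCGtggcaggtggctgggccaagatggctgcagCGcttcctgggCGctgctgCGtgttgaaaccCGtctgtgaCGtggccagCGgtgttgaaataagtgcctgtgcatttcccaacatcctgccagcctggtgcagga
PDE4DIP (kept, reference start, chr1:145040117-145040416, minus strand): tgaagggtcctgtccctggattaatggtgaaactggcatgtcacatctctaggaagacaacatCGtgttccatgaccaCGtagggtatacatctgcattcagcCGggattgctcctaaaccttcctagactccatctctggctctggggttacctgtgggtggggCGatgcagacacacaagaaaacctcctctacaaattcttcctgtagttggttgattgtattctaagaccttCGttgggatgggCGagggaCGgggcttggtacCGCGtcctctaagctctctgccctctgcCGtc
PDE4DIP (gained, intron, chr1:144995083-144995382, minus strand): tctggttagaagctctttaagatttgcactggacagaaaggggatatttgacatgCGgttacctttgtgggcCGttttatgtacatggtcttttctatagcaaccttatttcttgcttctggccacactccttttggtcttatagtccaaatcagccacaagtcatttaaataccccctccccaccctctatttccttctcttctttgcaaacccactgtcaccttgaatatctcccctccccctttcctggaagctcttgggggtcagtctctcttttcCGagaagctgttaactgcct
LIMD1 (kept, reference start, chr3:45635516-45635815, plus strand): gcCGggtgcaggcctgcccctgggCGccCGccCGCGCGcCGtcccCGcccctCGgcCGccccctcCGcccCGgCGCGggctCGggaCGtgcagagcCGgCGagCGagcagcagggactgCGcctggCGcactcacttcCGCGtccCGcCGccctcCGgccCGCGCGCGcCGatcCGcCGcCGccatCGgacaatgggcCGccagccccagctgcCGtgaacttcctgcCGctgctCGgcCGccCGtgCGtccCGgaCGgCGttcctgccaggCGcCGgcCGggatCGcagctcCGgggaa
LIMD1 (gained, upstream start, chr3:45596586-45596885, plus strand): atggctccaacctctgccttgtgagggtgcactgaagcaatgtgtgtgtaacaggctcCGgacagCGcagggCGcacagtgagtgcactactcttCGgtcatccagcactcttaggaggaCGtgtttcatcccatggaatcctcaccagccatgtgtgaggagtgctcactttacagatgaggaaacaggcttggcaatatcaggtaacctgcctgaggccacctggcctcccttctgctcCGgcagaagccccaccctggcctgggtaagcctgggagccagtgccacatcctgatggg
These were picked to set kept starts beside lost or gained ones. AATK has no kept start and is shown by a lost site alone. All kept starts shown are reference starts, so the type of start is mixed with its state. The kept reference start of RXRA had 66 CG in its 300 bases, against 17 at the lost site in intron 1. The other kept site of RXRA, also in intron 1 and not shown, had 8. BAIAP2 had 34 at its reference start and 6 at the lost site in intron 2, and the lost site in intron 3 of AATK had 18. LIMD1 had 50 at the kept start and 6 at the gained one. PDE4DIP differed less, with 10 CG at its reference start and 3 at the gained site in intron 3.

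Over all start sites of the 9 genes, the median number of CG per 300 bases was 27 for the 16 kept sites (3 to 66), 8 for the 17 lost sites (3 to 18), 3 for the 5 gained sites (1 to 6) and 4 for the 37 unmarked sites (0 to 29). The sites of all protein-coding genes had medians of 17, 9, 5 and 3 in the same order. The medians over all sites were 7 in these genes and 5 in the genome. By these medians, lost and gained sites had fewer CG than kept sites. The medians of lost and unmarked sites come from different genes. All 17 lost sites lay in the 5 genes with fewer bases in KO, which held 15 of the unmarked sites. PDE4DIP alone held 16 unmarked sites, with 0 to 6 CG. In BAIAP2 the 6 unmarked sites had 10 to 14 CG and the 6 lost sites 6 to 16. No order of lost and unmarked sites within genes is thus read from the medians. Neighbouring sites of a gene share islands and are not independent of each other.

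BAIAP2 encodes IRSp53, an adaptor that links the small GTPases Rac1 and Cdc42 to actin at the cell membrane. Its body lies at chr17:79008922-79091234 on the plus strand. Over the body and 5 kb upstream, H3K4me3 islands covered 54.3 kb in WT against 22.9 kb in KO, a difference of -31.4 kb. By a rule of at least 2 times and 1 kb, this was a loss, as for AATK, CARD10 and MEGF6, and 4 of the 9 genes met it where 2.04% of all protein-coding genes did. LIMD1 and IQCJ-SCHIP1 met the rule for a gain, against 4.10% of all genes, and with both libraries scaled to the same covered length LIMD1 alone did. Both counts follow from how the genes were chosen.

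**Figure D1:**
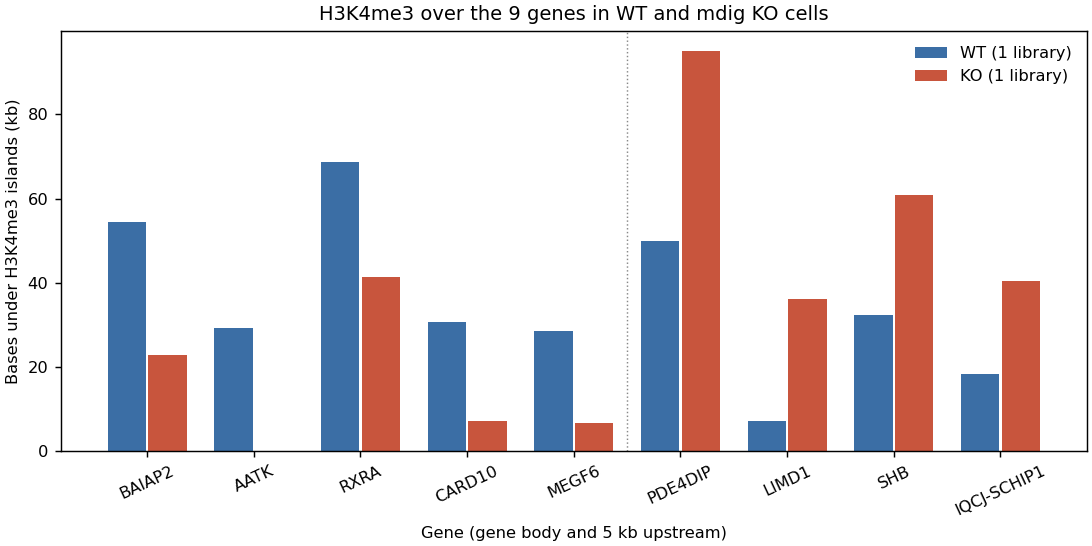
Bases under H3K4me3 islands (kb, y axis) over the body and 5 kb upstream of each of the 9 genes (x axis), as a bar for the 1 WT library and a bar for the 1 KO library. The dotted line parts the 5 genes with fewer bases in KO, of which AATK had 0 kb, from the 4 with more, of which PDE4DIP reached 95.0 kb.

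The BAIAP2 promoter kept H3K4me3, and the mark was absent in KO from the 3′ part of the gene. In WT an island of 36.2 kb ran from 11.9 kb before the gene start to 24.3 kb inside it. The KO island over the same promoter was 27.8 kb long, and its 3′ edge lay 6.4 kb closer to the start. A WT island of 22 kb, from 56.5 to 78.5 kb inside the gene, and another of 26.2 kb just beyond it had no KO island over any base.

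Of the 15 joined start sites of BAIAP2, 3 were kept, 6 were lost and 6 were unmarked. The kept ones were the reference start and a pair in intron 1, at 0.881 and 18.2 kb from the gene start. The site at 18.2 kb lay just past the 3′ edge of the KO island and was kept only by the distance of 1 kb. The lost ones were a pair in intron 2, at 21.2 and 22.2 kb, and 4 sites between 62.5 and 70.0 kb, in introns 6 and 10 and coding exon 9. All 6 lost sites thus lay inside the gene, under the WT islands of 36.2 and 22 kb. The pair in intron 1 and the 6 unmarked sites lay inside the gene as well. Whether transcripts start at any of these sites in the cells was not tested.

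AATK, a membrane-anchored kinase first described in dying myeloid cells, is transcribed toward BAIAP2 from chr17:79084287-79140021 on the minus strand. It went from 29.3 kb of H3K4me3 in WT to 0 kb in KO. The 26.2 kb WT island covered its 3′ part and crossed into the last part of BAIAP2. The bodies overlap by 6.95 kb, of which 6.15 kb lay under H3K4me3 in WT against 0 kb in KO, so the losses of these genes are in part the same bases. Counted once, the regions of both genes held 77.5 kb in WT against 22.9 kb in KO.

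The reference start of AATK was unmarked in both libraries, and 5 of its 6 start sites were lost. These lay 33.4 to 44.7 kb inside the gene, in introns 2 and 3 and coding exons 8 and 11. In WT, AATK was the gene of the 9 most covered by H3K27me3 as a share of its 60.7 kb region, with 54.2 kb in WT against 50.6 kb in KO. The bases that lost H3K4me3 there were under H3K27me3 islands in both libraries, with 80.5% of them covered in WT and 79.1% in KO.

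**Figure D2:**
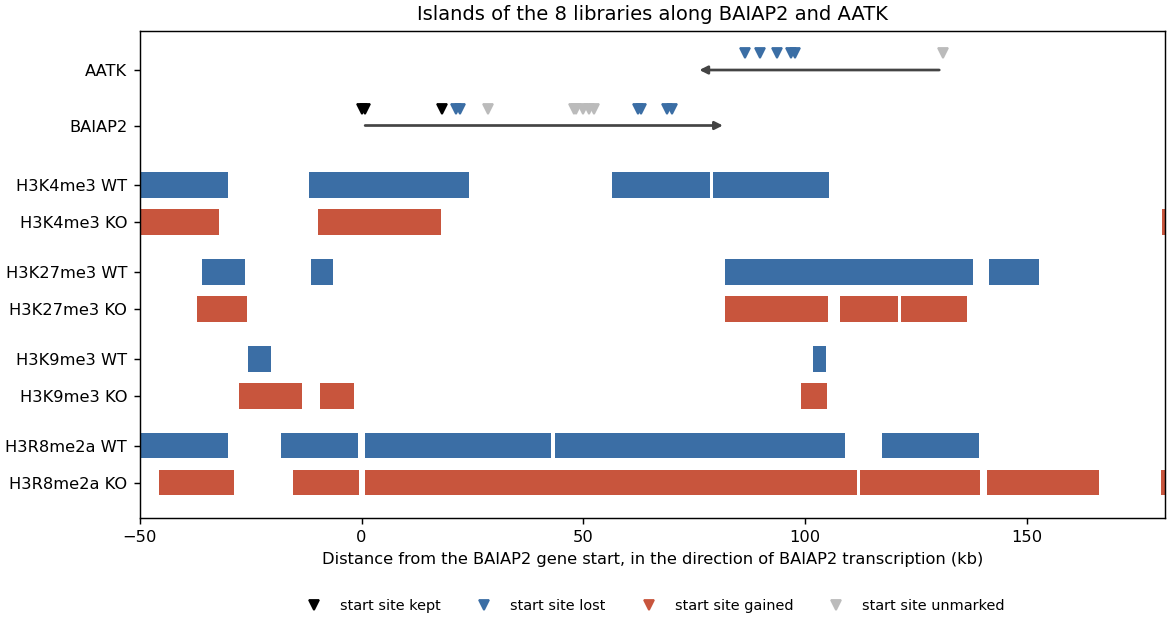
Islands of the 8 libraries (rows, WT and KO for each mark) against the distance from the BAIAP2 gene start (kb, x axis). Arrows show both genes in their direction of transcription and triangles their joined start sites, coloured by H3K4me3 state. The WT islands of 22 and 26.2 kb in the H3K4me3 row have no counterpart in KO, while the H3R8me2a rows are covered there in both.

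RXRA, the retinoid X receptor that pairs with many nuclear receptors, lies at chr9:137208944-137332431 on the plus strand. It held 68.8 kb of H3K4me3 in WT, the most of the 9 genes, and 41.4 kb in KO. WT had 1.66 times as much, which was under the rule of 2 times. The island over its reference start measured 23.4 kb in WT and was split into pieces of 12 kb in all in KO. A WT island of 13.4 kb, from 37.9 to 51.3 kb inside the gene, was absent, and the next one went from 12.4 to 7 kb.

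By the distance of 1 kb, RXRA kept the mark at its reference start and at a site in intron 1, 62.2 kb from the gene start. It lost the mark at another site in intron 1, at 54.9 kb, and the other 2 of its 5 sites were unmarked. The reference start itself lay in a gap between the pieces of the KO island, so it counts as lost when an island has to cover the site. The last island of RXRA was the exception to the direction, at 19.6 kb in WT against 22.4 kb in KO, with 6 kb of new H3K4me3 on its 5′ side. Those 6 kb lay under H3K9me3 islands over 100% of their length in KO and 0% in WT.

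CARD10 encodes CARMA3, a scaffold that joins BCL10 and MALT1 to activate NF-κB in cells other than lymphocytes. It lies at chr22:37886400-37915549 on the minus strand and is the shortest of the 9 genes, at 29.15 kb. H3K4me3 covered 30.6 kb of its 34.2 kb region in WT against 7.2 kb in KO, a 4.24-fold difference. In WT nearly the whole gene was marked, and in KO only the promoter was. The promoter island went from 17 to 7.2 kb with both edges drawn in, by 5.2 kb upstream and 4.6 kb inside, and the 16.6 kb island over the rest of the gene was absent.

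Of 8 start sites in CARD10, the reference start and a site 4.74 kb inside in intron 3 were kept, and 5 sites between 7.30 and 24.97 kb were lost. All 5 lie in introns of the reference transcript, from intron 3 to intron 15. CARD10 had no H3K27me3 or H3K9me3 island in either library over its region.

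MEGF6, a protein with many EGF-like repeats, lies at chr1:3404515-3528072 on the minus strand. Its H3K4me3 was 28.6 kb in WT against 6.6 kb in KO, a 4.33-fold difference, all of it deep inside the gene. With 50 kb added on both sides the values were 57.4 and 30.2 kb, and the loss no longer met the rule. The reference start was unmarked in both libraries and lay under H3K27me3 in both. The 1 marked site, in intron 4 at 80.1 kb, was kept, while its island went from 12.6 to 6.6 kb. A WT island of 16 kb just 5′ of it was absent in KO and held no annotated start of MEGF6, so this gene lost 22 kb of H3K4me3 without losing a start site.

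H3K27me3 over MEGF6 was 67.5 kb in WT against 118 kb in KO, which is 1.75 times and under the rule, and H3K9me3 rose from 7.49 to 49.5 kb. The bases that lost H3K4me3 were under H3K27me3 islands for 20% of their length in WT and 75.5% in KO. For the 6.6 kb that kept H3K4me3 the shares were 0% and 100%. AATK and MEGF6 both met the rule for a loss of H3K4me3. In AATK those bases had H3K27me3 in both libraries, and in MEGF6 most had it in KO alone.

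PDE4DIP encodes myomegalin, a scaffold of the centrosome and Golgi that binds the phosphodiesterase PDE4D. It lies at chr1:144836157-145076227 on the minus strand. PDE4DIP had the largest difference of the 9 genes, with 50 kb in WT against 95.0 kb in KO, which at 1.90 times was under the rule of 2 times. Most of it was 1 island over the reference start, 21.6 kb in WT against 62.8 kb in KO, which ranked second by length among the 17503 H3K4me3 islands of KO. Its 5′ edge moved by 0.2 kb and its 3′ edge lay 41 kb further into the gene.

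The 62.8 kb island had nearly the same edges as the H3R8me2a islands at this place. H3R8me2a covered 63 kb there in WT against 62.8 kb in KO, with each edge within 200 bp of the H3K4me3 island of KO. The new H3K4me3 thus filled a stretch whose ends were already those of an H3R8me2a island in WT. PDE4DIP has near-identical copies on chromosome 1, and the annotation lists the transcribed pseudogene PDE4DIPP2 over the same span, so the placement of reads, and with it these islands, is uncertain.

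Of 24 start sites in PDE4DIP, 4 were kept, 4 were gained and 16 were unmarked. The kept ones were the first start of the gene, the reference start 36.1 kb further in, a site next to it, and a site at 143.7 kb in intron 8. The gained ones lay at 60.3, 75.5 and 81.3 kb, inside the 62.8 kb island, and at 154.2 kb in intron 11. The site at 81.3 kb, in intron 3, is the start of 10 annotated transcripts, 6 of them coding, and was the gained site with the most.

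**Figure D3:**
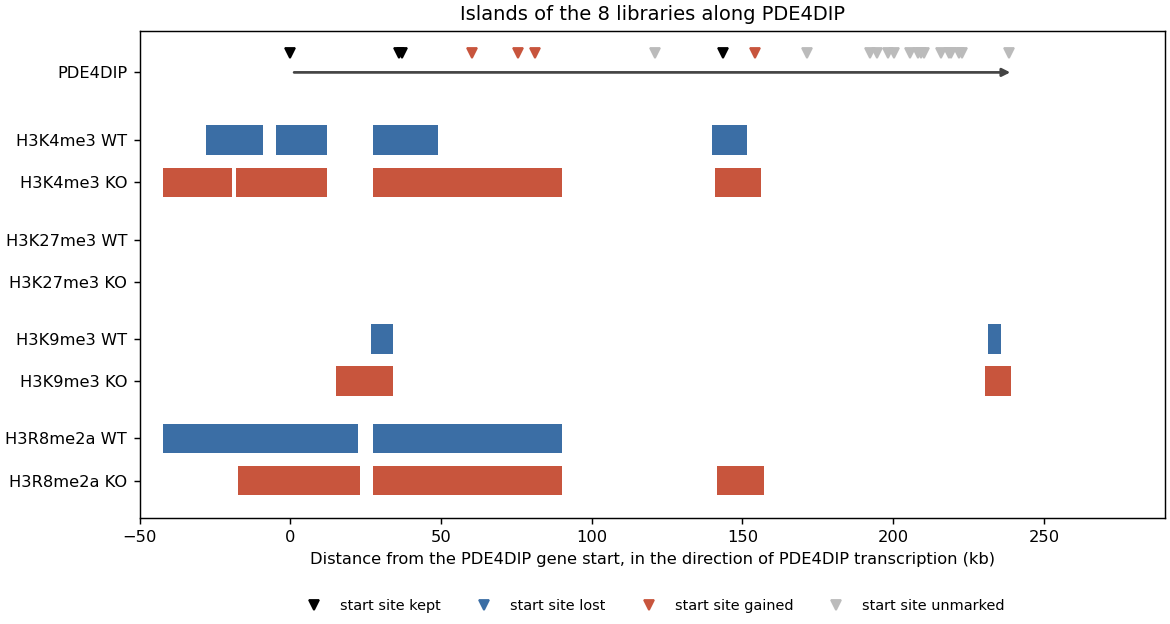
Islands of the 8 libraries (rows) against the distance from the PDE4DIP gene start in its direction of transcription (kb, x axis), with the gene as an arrow and its joined start sites as triangles coloured by H3K4me3 state. The 62.8 kb H3K4me3 island of KO spans the same stretch as the H3R8me2a islands of WT and KO, and both H3K27me3 rows are empty.

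LIMD1, a LIM domain adaptor of the Ajuba family that binds LATS kinases of the Hippo pathway, lies at chr3:45596886-45727833 on the plus strand. It rose from 7.2 kb of H3K4me3 in WT to 36.03 kb in KO, or 5.00 times, the largest fold of the 4 genes with more bases in KO. WT had 1 island in the region, over the reference start, and it grew to 12 kb in KO. Islands of 8, 1.8 and 5.8 kb inside the gene and 1 of 7.6 kb at the first start of the gene were found in KO alone. The only annotated transcript that begins there, 38.9 kb upstream of the reference start, is not classed as coding, and its start gained H3K4me3. The same island also covers the end of the neighbouring gene LARS2.

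LIMD1 was also the only gene of the 9 that met the rule for H3R8me2a, with 10.4 kb in WT against 50.9 kb in KO. The new H3K4me3 bases were under H3R8me2a for 8.32% of their length in WT and 94.3% in KO, so both marks appeared over the same stretches. The gained start lay within 1 kb of H3R8me2a in KO alone.

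SHB, an SH2 domain adaptor downstream of receptor tyrosine kinases, lies at chr9:37915895-38069224 on the minus strand. It held 32.4 kb of H3K4me3 in WT against 60.8 kb in KO, 1.88 times and under the rule. Its promoter island was not wider in KO, and measured 11.6 kb in WT against 10.6 kb in KO. The added bases were inside the gene, where an island at 46.2 to 63.2 kb went from 5.4 to 17 kb and an island at 111.8 to 128.0 kb from 5.4 to 16 kb. SHB overlaps ENSG00000255872, a longer coding gene on the same strand that had 63 kb in WT against 97.6 kb in KO and shares these islands.

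IQCJ-SCHIP1 is a readthrough gene that joins IQCJ to SCHIP1, whose product binds the NF2 tumour suppressor. Its body of 935 kb at chr3:158680024-159615418 on the plus strand is the longest of the 9. H3K4me3 was 18.2 kb in WT and rose to 40.4 kb in KO, all of it in the 3′ part, from 495 kb onward. Its first 5 start sites, the reference start among them, were unmarked in both libraries. The sites at 801 and 803 kb, in intron 1 and coding exon 2, were kept under an island of 9.8 kb in WT against 10.8 kb in KO.

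The gain of IQCJ-SCHIP1 lay further 3′, where an island went from 5.4 to 11 kb and islands of 9.6 and 4 kb appeared in KO alone. The 5′ part, which is the IQCJ gene, carried no H3K4me3 in either library and gained H3K27me3, from 49.4 to 109.6 kb. SCHIP1 alone went from 5.4 to 15 kb of H3K4me3, a gain by the rule.

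**Figure D4:**
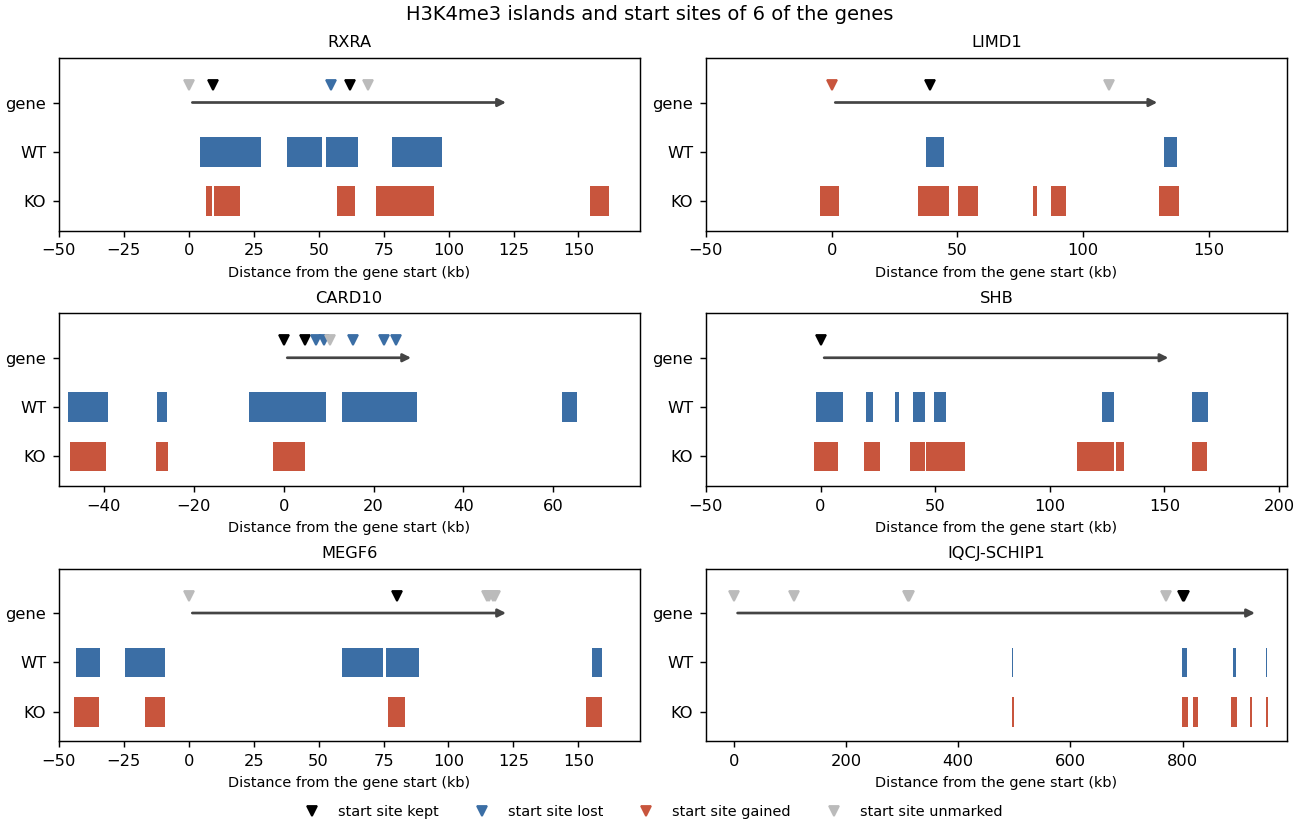
H3K4me3 islands in WT and KO (rows) along 6 of the genes with 50 kb on both sides, against the distance from the gene start in the direction of transcription (kb, x axis). Triangles are joined start sites coloured by state. RXRA, CARD10 and MEGF6 lack WT islands of 13.4, 16.6 and 16 kb in KO, and LIMD1, SHB and IQCJ-SCHIP1 have wider or added islands inside the gene.

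Of the 75 joined start sites of the 9 genes, 16 were kept, 17 lost, 5 gained and 37 unmarked. Over the 69604 sites of all protein-coding genes the shares were 33.6% kept, 1.53% lost and 2.01% gained. Among the 25870 sites marked in at least 1 library, 90.5% were kept, 4.11% lost and 5.42% gained, against 42.1%, 44.7% and 13.2% of the 38 such sites in the 9 genes. These shares come from the contrast that chose the genes, so nothing is read from their size. The reference start was kept in BAIAP2, RXRA, CARD10, PDE4DIP, LIMD1 and SHB and unmarked in both libraries in AATK, MEGF6 and IQCJ-SCHIP1.

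By the distance of 1 kb, no reference start was lost or gained in the 9 genes. This is also the usual case, since of the reference starts of all protein-coding genes 65.0% were kept, 1.54% lost and 1.08% gained. When an island had to cover the site itself, the reference start of RXRA and the BAIAP2 site at 18.2 kb were lost. The 75 sites then fell into 14 kept and 19 lost. Each of the 17 lost sites lay inside its gene. BAIAP2, RXRA and CARD10 had both kept and lost sites, which 2.32% of protein-coding genes had, and PDE4DIP and LIMD1 had both kept and gained sites, which 4.18% had. Within 5 kb on both sides of the gene start, which is the 5′-most annotated start, BAIAP2 had 10.001 kb of H3K4me3 in both libraries. The corresponding values for CARD10 were 10.001 kb in WT against 7.2 kb in KO, and LIMD1 had 0 kb in WT against 7.6 kb in KO.

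Edges of the islands shifted more than usual in these windows. With 50 kb added on both sides of each gene there were 35 H3K4me3 islands in WT, of which 80% overlapped a KO island, and 38 in KO, of which 78.9% overlapped a WT island. The genome-wide shares were 93.2% and 90.8%. Of 26 islands paired 1 to 1, 11 (42.3%) had an edge that moved by more than 4 kb, against 3.58% of 15267 pairs over the genome. This too follows from how the genes were chosen.

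Just outside the 9 genes in the ranking were ZMIZ1, GRK5 and WNT7B, with 20, 17.8 and 15.4 kb more in WT, and NBEAL2, MGLL and EYA2, with 21.4, 20.7 and 20.2 kb more in KO. MEGF6 with -22 kb and IQCJ-SCHIP1 with 22.2 kb were the members nearest to them. ENSG00000255872 ranked between PDE4DIP and LIMD1 and was not chosen. Genes with this much H3K4me3 mostly had similar values in both libraries. Of 271 genes with at least 20 kb in WT, 8 (2.95%) met the rule for a loss, and the median of the KO to WT ratio was 1.00. The members AATK, BAIAP2, CARD10 and MEGF6 are among those 8. Of 407 genes with at least 20 kb in KO, 24 (5.90%) met the rule for a gain, LIMD1 and IQCJ-SCHIP1 among them, and the median ratio was 1.21.

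The other 3 marks were not used to choose the genes. H3R8me2a covered most bases where H3K4me3 was absent from KO. With bases shared by BAIAP2 and AATK counted once, the members had 138 kb with H3K4me3 in WT alone, and 93.9% of these bases were under H3R8me2a in WT and 92.1% in KO. All such bases of the genome had 24.0% and 28.5%. In BAIAP2, AATK and MEGF6 the share was 100% in both libraries, in RXRA 90.4% and 97.0%, and in CARD10 83.7% and 65.1%. H3K4me3 was thus absent from stretches that were still covered by H3R8me2a. The high share was not particular to these stretches. Bases of the members with H3K4me3 in both libraries had 89.0% in WT and 93.7% in KO, against 37.2% and 46.6% over the genome.

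Long stretches with H3K4me3 in WT alone had a high share over the genome as well, with those of the members counted among them. The genome had 20 stretches of at least 10 kb with H3K4me3 in WT alone, 5 of them in these genes. H3R8me2a covered 85.3% of the bases of these 20 in WT and 90.7% in KO. For the 55 such stretches with H3K4me3 in KO alone, 2 of them in these genes, the shares were 61.5% and 86.4%. Over whole gene regions H3R8me2a was wide as well, as in BAIAP2 with 84.9 kb in WT against 86.1 kb in KO of 87.3 kb. Whether breadth or genotype sets the share was not tested.

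At the 135 kb with H3K4me3 in KO alone, H3R8me2a covered 64.5% in WT and 85.5% in KO, against 17.3% and 30.8% over the genome. The genes differed among themselves. PDE4DIP had 90.0% and 99.6% and SHB 96.9% and 96.3%, so H3R8me2a was there in WT already. LIMD1 went from 8.32% to 94.3%, and IQCJ-SCHIP1 had 28.6% and 25.9%. H3K27me3 covered 0% of these bases in both libraries, against 9.84% and 9.89% over the genome.

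**Figure D5:**
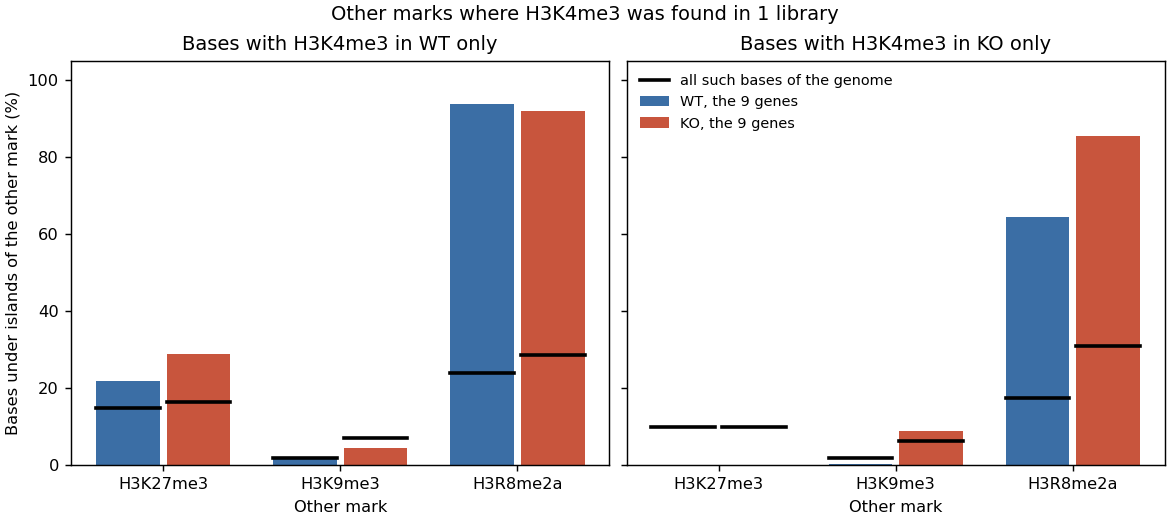
Share of bases (%, y axis) under islands of each other mark (x axis), for bases with H3K4me3 in WT alone (left) and in KO alone (right). Bars give the bases of the 9 genes in the WT and KO library of that mark, and black lines all such bases of the genome. H3R8me2a is at 93.9% and 92.1% on the left, against lines at 24.0% and 28.5%.

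The same held at start sites. H3R8me2a islands lay within 1 kb of 15 of the 17 lost sites in both libraries, and of the 1063 lost sites of all protein-coding genes 20.7% had this. They also lay at 14 of the 16 kept sites in both libraries, against 36.5% of all kept sites. H3K27me3 lay at 5 of the 17 lost sites in both libraries, all in AATK, against 36.3% of all lost sites. Lost sites of a gene lay under the same few islands, so these counts are not independent.

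H3K9me3 met the rule for a gain in 7 of the 9 genes, against 27.6% of all protein-coding genes and 39.2% of the 9681 genes at least as long as CARD10. The background by length was added after the values were seen. The values ranged from 0 to 23.4 kb in WT and from 0 to 79.4 kb in KO. IQCJ-SCHIP1 had 23.4 kb in WT against 79.4 kb in KO, MEGF6 7.49 and 49.5 kb, PDE4DIP 11.4 and 27.2 kb, and RXRA 2 and 11.4 kb. CARD10 and SHB had none in either library. A loss of H3K9me3 was met by 0 of 9, against 0.874% of all genes. Genes with fewer and with more H3K4me3 in KO were both among the 7.

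The H3K9me3 islands of KO covered 3.69 times as many bases as those of WT over the whole genome. With both libraries scaled to the same covered length, only BAIAP2 and LIMD1, which had none in WT, met the rule, or 2 of 9, against 19.4% of all genes. At the changed H3K4me3, H3K9me3 covered 2.03% in WT and 4.34% in KO of the bases with H3K4me3 in WT alone, against 1.63% and 6.90% over the genome. Of the bases with H3K4me3 in KO alone it covered 0.148% in WT and 8.87% in KO, against 1.84% and 6.23% over the genome.

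H3K27me3 met the rule for a gain in IQCJ-SCHIP1 alone, against 6.49% of all genes, and for a loss in RXRA alone, against 3.29%. RXRA had 11.8 kb in WT against 5.66 kb in KO, in an island upstream of its reference start. With 50 kb on both sides RXRA had 53.3 kb in WT against 59.1 kb in KO and no loss, and with scaled libraries IQCJ-SCHIP1 no longer met the rule for a gain. CARD10, PDE4DIP, LIMD1 and SHB had no H3K27me3 in either library over the region. H3R8me2a met the rule for a gain in LIMD1 alone, against 20.0% of all genes, and for a loss in 0 of 9, against 8.04%.

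Among 21 other protein-coding genes whose bodies reached these windows, AL590452.1, LARS2 and SCHIP1 met the rule for a gain of H3K4me3, MFNG and PRDM16 for a loss, and 16 for neither. These are 14.3% and 9.52%, beside 4.10% and 2.04% of all genes. SCHIP1, AL590452.1, LARS2 and MFNG met the rule through islands that also cover bases of the member next to or over them. Their directions and these shares thus follow in part from how the members were chosen. The H3K4me3 bases that PRDM16 lost lay outside the window of MEGF6, which PRDM16 reaches only with its 3′ end. SCHIP1 overlaps its member and shares islands with it. AL590452.1 lies under the 62.8 kb island of PDE4DIP. LARS2, the mitochondrial leucyl-tRNA synthetase, ends just before LIMD1 and went from 3.2 to 8.02 kb. Of the 50 start sites of these coding neighbours in the windows, 16 were kept, 1 was lost, 2 were gained and 31 were unmarked. Noncoding genes are not in this count. Their starts were lost at MIR657, MIR338, MIR1250 and ENSG00000263167, under the 26.2 kb WT island of AATK. Others were gained, as at ENSG00000291233 and ENSG00000272755 under the 62.8 kb island, and the rest were kept or unmarked.

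Relatives and known partners of the 9 proteins, 98 genes in 9 lists, had a gain of H3K4me3 in 7 and a loss in 5. These are 7.14% and 5.10%, beside 4.10% and 2.04% of all genes and 4.61% and 2.42% of the 9681 genes at least as long as CARD10. The median difference was 0.8 kb, beside 0 kb over all genes. The reference start was unmarked in both libraries in 32.3% of all genes. No background of marked genes alone was computed, so nothing is read from these differences. Gains were seen in BAIAP2L1, a relative of BAIAP2 (3.2 to 9 kb), in THRB and NR1I3, nuclear receptors that pair with RXRA (4.4 to 11.4 kb and 0 to 3.75 kb), and in CARD9, a relative of CARD10 (5.19 to 10.8 kb). The kinase SRC went from 9 to 24.97 kb, and ANK2 from 1.4 to 5.8 kb. The remaining gain was SCHIP1, which lies within the member IQCJ-SCHIP1 and shares its islands. That call is thus not independent of how the members were chosen.

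The 5 with a loss included partners of genes whose H3K4me3 was wider in KO. PDE4D, which myomegalin binds, went from 20.4 to 10.2 kb, and PDGFRB, a receptor on the SHB list, from 15.4 to 6.6 kb. IKBKB, the kinase downstream of CARD10, went from 12.4 to 4 kb. ANK3 went from 5 to 1.4 kb, and EGFL8, a relative of MEGF6, from 1.46 to 0 kb. In the LIMD1 list of relatives and known partners, 0 of 17 met the rule in either direction.

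The gene most like each member over the covered share of its region in the 8 libraries was sought among genes of 0.5 to 2 times its length. BAIAP2 and RXRA were each the closest gene to the other, at a Euclidean distance of 21.6 percentage points. IQCJ-SCHIP1 was nearest to NAV2 at 5.75, LIMD1 to PC at 11.1, PDE4DIP to ENSG00000235007 at 14.2 and SHB to PTPN1 at 16.2. CARD10 was nearest to SH3BP1 at 33.1, MEGF6 to CACNA1G at 55.2 and AATK to LSP1 at 57.1. The 8 libraries include the H3K4me3 pair whose difference chose the members, so these distances in part restate that choice.

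Across the libraries, the bases covered in KO were 1.15 times those in WT for H3K4me3, 1.33 for H3K27me3 and 1.61 for H3R8me2a. RIOX2 held 3 kb of H3K4me3 in WT against 3.8 kb in KO, which does not check the edit, since islands hold no read sequence. H3K4me3 lay at a start site of 7 of 10 airway epithelial markers in both libraries, with KRT5, KRT19 and TP63 unmarked, and at 5 of 6 mesenchymal, 1 of 6 leukocyte and 0 of 3 endothelial markers.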

How the data were processed

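The authors aligned 75-nt ChIP-seq reads to hg19 with BWA (version not given in the sources used here), lengthened each to 200 bp and drew tags at random down to the smallest library compared. Islands are credited to SICER 1.1 by the submitters' processing notes and were called per library. The deposited file gives island starts and ends only, for 8 libraries, on a 200 bp grid, with no counts or scores. The input has no islands of its own.

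Bases under islands were summed over the body and 5 kb upstream of each protein-coding gene (GENCODE 44 on GRCh37, whose coordinates are those of hg19) with Python 3.11.15 and numpy 2.4.6. All 18 sums of the members were the same with bedtools 2.31.1. Figures used matplotlib 3.10.9. A gain or loss needed 2 times and 1 kb. Overlap needed 1 base. The code was checked on simulated islands. With 1 library per condition there was no test.

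The members and gene lists were chosen with earlier results of these data known. Named are the 9 members, genes reaching their 50 kb flanks, partner genes meeting the rule, the 3 next in rank in each direction and the closest gene to each member. Alternatives changed the region, factor, scaling, islands, start sites and overlap. PECAM1 and RNA-seq were not analysed here.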

Additional observations from a re-analysis of the deposited data

How the results depend on the processing

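With shared bases counted once, the H3K4me3 difference over the 5 genes with fewer bases in KO was -127.4 kb and over the 4 with more 124.5 kb, and both stayed within 1.5 times in the gene body alone, with 50 kb on both sides, with scaled libraries, and with islands of at least 1 kb or merged within 1 kb. Within 5 kb on both sides of the gene start they were -3.345 and 8.63 kb. That region also gave 1 gain and 0 losses of H3K4me3, 0 and 0 of H3K27me3, 2 gains of H3K9me3, and 2 gains and 1 loss of H3R8me2a. With 50 kb on both sides H3K27me3 had 2 gains and 0 losses, and BAIAP2 and AATK, whose windows then share more bases, went from -31.4 to -58.6 kb and from -29.3 to -47.6 kb of H3K4me3. With scaled libraries the gains were 1 for H3K4me3, 0 for H3K27me3 and 2 for H3K9me3, and H3R8me2a had 1 loss. A factor of 1.5 gave 4 gains of H3K4me3, 2 of H3K27me3 and 2 of H3R8me2a. Among coding transcripts alone, 10 start sites were lost and 1 was gained. Where overlap needed 50% of both islands, 9 WT and 9 KO islands of H3K27me3 and 10 and 10 of H3K9me3 were shared. Of 159 alternative values, 124 were within 1.5 times of the value reported. No paired analysis was possible because there was 1 library per condition, and no library could be left out. Islands carry no read number, so wider marking and looser calling cannot be told apart.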
